A study of Caenorhabditis elegans with 4 samples.

Results

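Isolated LIN-61 peaks are the peaks of the authors' whole-series list that stand alone, with no other peak of that list within 20000 bp of either edge. They were selected on the peak positions in that list, and 324 of its 14662 peaks met the rule, or 2.21%. The other 14338 peaks are called the remaining peaks. The list comes from chromatin immunoprecipitation and sequencing (ChIP-seq) of wild-type Caenorhabditis elegans of the laboratory strain N2. The animals were third-stage (L3) larvae, with males and hermaphrodites mixed, and LIN-61 was precipitated with an affinity-purified rabbit polyclonal antibody. The series holds 2 ChIP libraries, each with its own peak list, and 2 input DNA libraries of the same larval stage that were not analysed here.

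LIN-61 is a chromatin protein built of MBT repeats, a fold that reads methylated lysines, and it binds histone H3 methylated at lysine 9 in vitro. Its gene belongs to the synMuv B class, whose members repress genes through chromatin and whose loss adds to ectopic vulval induction. C. elegans chromosomes have gene-dense centres and repeat-rich arms that carry most of the H3 lysine 9 methylation.

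The replicate 1 list held 9958 peaks and the replicate 2 list 13486, and neither file gives a read count, so the depth behind a peak is unknown. How the whole-series list was made from the libraries is not stated, and the replicate lists are therefore not independent of it. The labels do not say whether the replicates came from separate cultures, so their spread may be technical. Each peak has a deposited score whose meaning is not stated, and scores are used here only to rank peaks within a list. Intervals in brackets are exact (Clopper-Pearson) 95% binomial intervals that cover counting error only. Genes and sequences at the peaks were not analysed here. All positions are in the WS220 build.

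The gap between an isolated peak and its nearest neighbour had a median of 30.97 kb and reached 136 kb, while the gap on the farther side had a median of 55.98 kb. Among the remaining peaks the median gap to the nearest neighbour was 353 bp. These distances follow from the rule and are given as a description. Just inside the limit lay peaks on I at 7239410 to 7239612, on I at 7895337 to 7895561 and on X at 575505 to 576190, with nearest gaps of 20016, 20135 and 20210 bp. Just outside it lay a peak on IV at 12391216 to 12391370 with a gap of 19892 bp. The next were a pair on I, at 6898155 to 6898787 and at 6877957 to 6878274, which lie 19880 bp from each other. Both sides of the limit held weak and strong peaks, with scores of 5.56, 7.11 and 20.3 inside and 4.27, 34.59 and 22.7 outside.

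Some isolated peaks followed one another along a chromosome. The rule favours this, since a direct neighbour of an isolated peak already meets the limit on one side, and the counts are a description. Of the 324, 167 had an isolated peak as their direct neighbour in the list, forming runs of 2 to 5, and 157 had none beside them. The longest runs, of 5 isolated peaks each, were on IV and X, and on I no run exceeded 2.

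Isolated peaks lay mainly in the chromosome centres and on X, the places where LIN-61 peaks are sparse. Each chromosome was divided into 3 equal sections, the left arm, the centre and the right arm. The centres held 166 isolated peaks, or 51.2% (45.6 to 56.8), against 1992 remaining peaks, or 13.9% (13.3 to 14.5). X, which made up 17.7% of the sequence, held 95 isolated peaks, or 29.3% (24.4 to 34.6), against 805 remaining peaks, or 5.61% (5.24 to 6.0). Because the rule used the spacing of peaks, these shares carry no test and say where the list is thin.

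**Figure D1:**
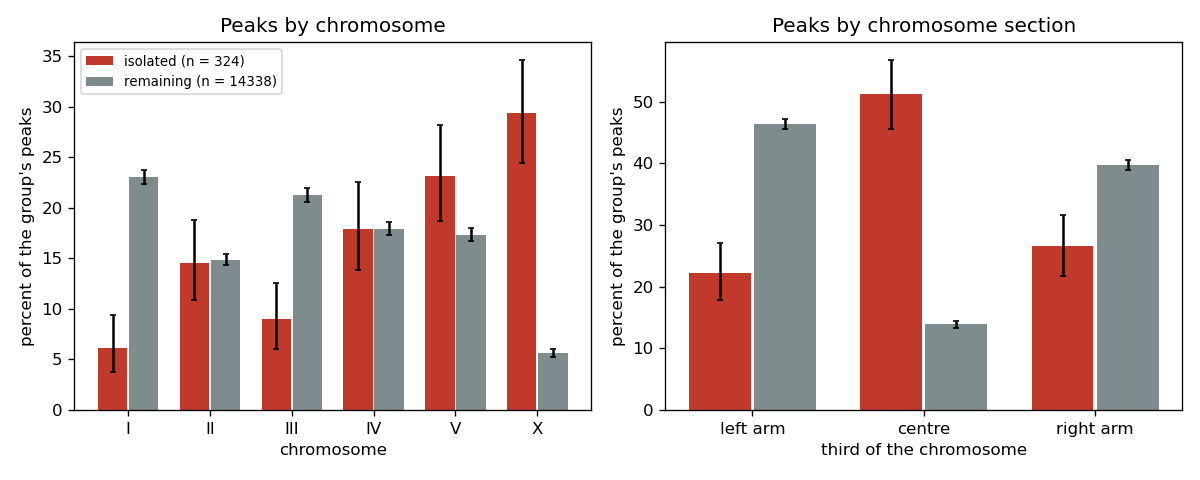
Percent of isolated peaks (red, left bar of each pair) and of remaining peaks (grey) on each chromosome and in each of the 3 equal sections of the chromosomes, with exact 95% binomial intervals. The isolated bars are tallest on X (29.3%) and in the centres (51.2%), and the remaining bars on I (23.0%) and in the left arms (46.4%).

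Per unit of sequence, isolated peaks were denser in the centres and the remaining peaks on the arms. The density of isolated peaks was 4.97 per Mb in the centres and 2.36 per Mb on the arms, where the remaining peaks had 59.6 and 184.7 per Mb. By chromosome it ran from 1.33 per Mb on I through 2.10 on III, 3.08 on II, 3.32 on IV and 3.58 on V to 5.36 on X. I and III, with the most crowded peak lists, thus had the fewest isolated peaks, at 20 and 29. II, IV and V had 47, 58 and 75.

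Seen as a share of the peaks present, 7.69% (6.60 to 8.90) of all peaks in the centres were isolated, against 1.26% (1.08 to 1.48) of all peaks on the arms. In the centre of X the share was 19.2%, or 33 of its 172 peaks. On the left arm of I it was 0.0615%, a single peak beside 1626 others. The autosomes and X differed in layout: 58.1% of the 229 autosomal isolated peaks lay in centres, but 34.7% of the 95 on X did. On X the right arm held 36, the centre 33 and the left arm 26, so that isolated peaks were found along its whole length.

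The next comparison asked whether isolated peaks were found in the individual ChIP libraries as often as the remaining ones, with an overlap of at least 1 bp counted as found. The rule bears on this comparison, since it leaves few neighbouring replicate peaks that could reach into an isolated peak. Leaving out overlapping peaks, replicate 1 had 1.33 peaks within 2 kb per remaining peak and 0.037 per isolated peak. For replicate 2 these values were 1.79 and 0.059. Whether this raised the overlap of remaining peaks was not tested. In replicate 1, the shorter list, 94 of 324 isolated peaks were overlapped, or 29.0% (24.1 to 34.3), against 47.0% (46.2 to 47.8) of the remaining peaks. In replicate 2, 255 isolated peaks were overlapped, or 78.7% (73.8 to 83.0), against 76.2% (75.5 to 76.9) of the remaining peaks. Over the whole list the shares were 46.6% in replicate 1 and 76.2% in replicate 2. The share of isolated peaks was therefore lower in replicate 1. In replicate 2 it was slightly higher, with an interval that held the share of the remaining peaks.

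By combination, 67 isolated peaks (20.7%, 16.4 to 25.5) were overlapped in both replicates, where the share over the whole list was 37.2%. A further 188 (58.0%, 52.4 to 63.5) were overlapped in replicate 2 alone, where the whole list had 39.1%. In replicate 1 alone there were 27 (8.33%, 5.56 to 11.9), with 9.46% in the whole list. The 42 found in neither replicate (13.0%, 9.50 to 17.1) were close in share to the 14.3% of the whole list. Most isolated peaks were thus overlapped in replicate 2, the longer list, as were 76.2% of all peaks of the whole list.

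These groups also differed in strength and width. Isolated peaks overlapped in both replicates had a median score of 19.1 and a median width of 552 bp. Those in replicate 2 alone had 7.42 and 255 bp, those in replicate 1 alone 5.19 and 236 bp, and those in neither 3.87 and 173.5 bp. The remaining peaks followed the same order of score, with 20.6, 6.53, 4.82 and 3.695.

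**Figure D2:**
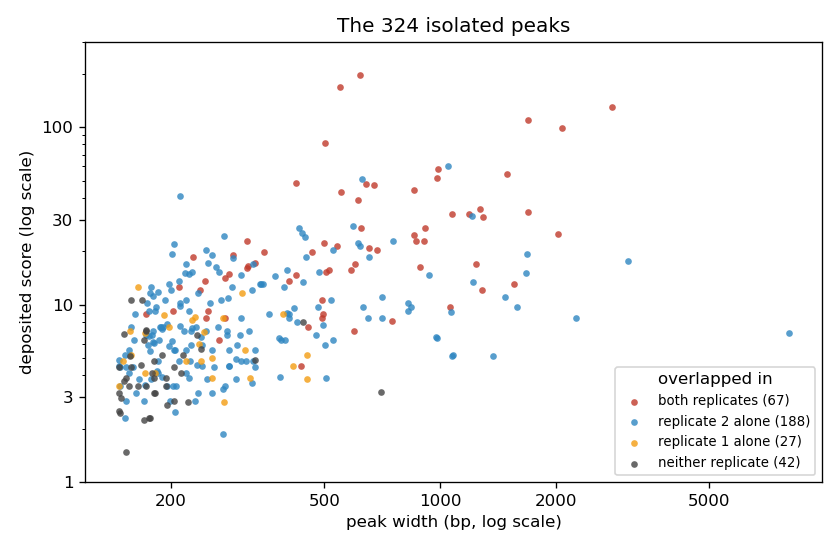
Deposited score (log axis) against width in bp (log axis) of the 324 isolated peaks, coloured by the replicate lists that overlap them. Peaks found in both replicates (67, red) fill the upper right, and those found in neither (42, dark grey) sit at low width and score, with medians of 173.5 bp and 3.87.

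With the chromosome as the unit, the difference in replicate 1 had the same sign throughout. The chromosomes were read from the same libraries and lists. The tests over chromosomes therefore address agreement among chromosomes and not reproducibility between libraries. Averaged over the 6 chromosomes, 31.7% of isolated peaks and 44.9% of remaining peaks were overlapped in replicate 1. The difference of -13.2 ± 5.3 percentage points (SD, n = 6 chromosomes) was negative on 6 of 6, with p = 0.03125 in an exact permutation test that flips the signs of the chromosome differences (two-sided), the smallest p that 6 chromosomes allow. It was largest on IV (27.6% against 47.8%) and smallest on X (23.2% against 30.1%) and I (40.0% against 47.1%). In replicate 2 the means were 79.0% and 76.4%, and the difference of 2.60 ± 5.4 points was positive on 5 of 6 chromosomes (exact permutation p = 0.281). II was the exception there, with 72.3% against 78.6%.

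The mean over both replicates, which was the planned measure, was 55.3% for isolated and 60.7% for remaining peaks. That difference, -5.32 ± 4.5 points (SD, n = 6 chromosomes), had an exact permutation p of 0.0625 and 0.0938 after Benjamini-Hochberg adjustment over the 3 planned tests of overlap, width and score. Its sign depended on the library and on the settings. Without replicate 1 it was 2.60 points and without replicate 2 it was -13.2. It was 3.02 in centres alone (exact permutation p = 0.03125, unadjusted), 1.16 under a reciprocal overlap of 50% (p = 0.406 in the exact permutation test) and 1.36 within width quartiles (p = 0.469 in the exact permutation test). The tests by replicate, including those within sections and quartiles below, form a family of 16, of which 9 stood at the smallest possible p of 0.03125, and each of the 9 had an adjusted value of 0.0556. None of the 16 passed 0.05 after adjustment. With 9 tests at the smallest possible p, 0.0556 was the lowest adjusted value open to them, so this does not show that differences are absent.

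**Figure D3:**
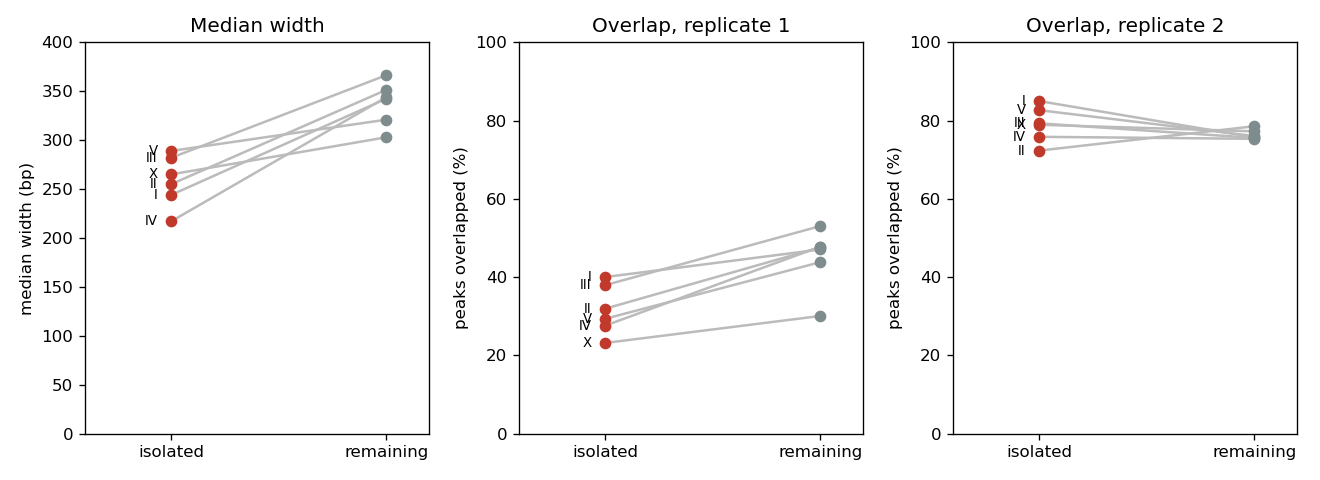
Median width in bp (left), percent of peaks overlapped in replicate 1 (middle) and in replicate 2 (right) for isolated (red) and remaining (grey) peaks, with a line joining the values of each chromosome. The lines climb towards the remaining peaks on 6 of 6 chromosomes for width and for replicate 1, and on 1 of 6, II, for replicate 2.

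The difference in replicate 1 was more negative on the arms than in the centres on 6 of 6 chromosomes, though not past 0.05 after adjustment. On the arms, 22.2% of the 158 isolated peaks and 48.4% of the remaining peaks were overlapped in replicate 1. In the centres the shares were 35.5% of 166 and 38.7%. Averaged over chromosomes the difference was -21.7 ± 11 points on the arms (exact permutation p = 0.03125, adjusted 0.0556) and -1.51 ± 4.1 in the centres (exact permutation p = 0.375), SD, n = 6 each. The arm difference minus the centre difference was -20.2 ± 14 points (exact permutation p = 0.03125, adjusted 0.0556). The arms of I held 4 isolated peaks and those of III held 9, so single peaks weigh heavily there. Remaining peaks were denser on the arms (184.7 per Mb) than in the centres (59.6), and whether this bears on the contrast was not tested. In replicate 2 the isolated peaks had the higher share in both places. In the centres it was 76.5% against 69.4%, with a mean difference of 7.55 ± 4.1 points (exact permutation p = 0.03125, adjusted 0.0556). On the arms it was 81.0% against 77.3%, with a mean difference of 4.09 ± 13 points (exact permutation p = 0.469, adjusted 0.50). The arm difference minus the centre difference was -3.46 ± 11 points there (exact permutation p = 0.50).

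Within quartiles of score, the isolated peaks again had the lower shares in replicate 1. Among the highest-scoring 25% of the whole list, 36 of 59 isolated peaks were overlapped, or 61.0% (47.4 to 73.5), against 87.5% (86.3 to 88.5) of the remaining peaks. That quartile did not match the groups fully, since its isolated peaks had a median score of 25.1 and a median width of 619 bp, against 33.9 and 884 bp for its remaining peaks. In the next quartile down the shares were 34.3% (25.1 to 44.6) and 53.7% (52.0 to 55.3). In the quartile below that they were 16.7% (9.84 to 25.6) and 27.8% (26.3 to 29.3), and in the lowest 11.4% (5.07 to 21.3) and 19.3% (18.1 to 20.7). The intervals of isolated and remaining peaks were apart in the upper 3 quartiles and overlapped in the lowest. They cover counting error only, and the peaks share the same libraries, so the separation is a description. Averaged within score quartiles the difference was -12.1 ± 2.9 points (SD, n = 6 chromosomes; exact permutation p = 0.03125, adjusted 0.0556).

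In replicate 2 the intervals of isolated and remaining peaks overlapped in every score quartile. All 59 isolated peaks of the top quartile were overlapped, against 3569 of 3572 remaining peaks. From the third quartile to the lowest the isolated peaks had 89.9%, 75.0% and 50.0%, against 93.4%, 70.3% and 41.2% of the remaining peaks.

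**Figure D4:**
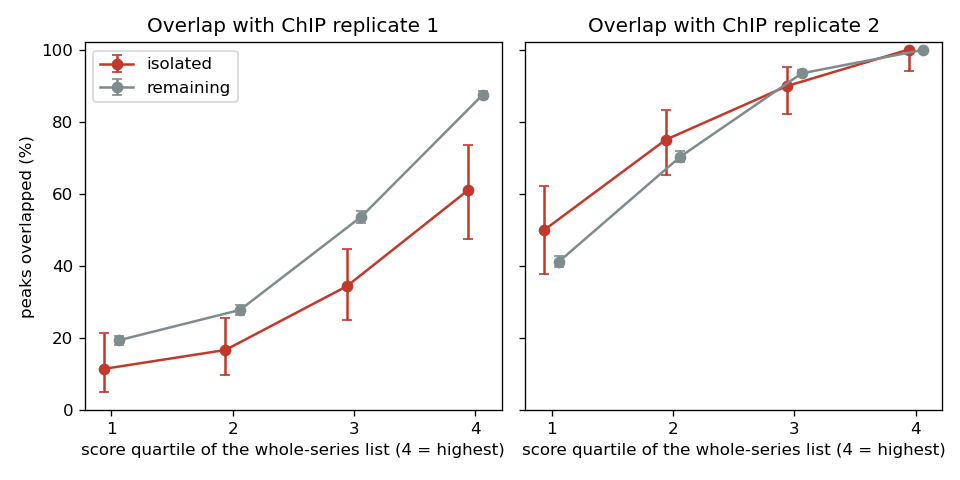
Percent of isolated (red) and remaining (grey) peaks overlapped in replicate 1 (left) and replicate 2 (right), by quartile of the deposited score in the whole-series list, with exact 95% binomial intervals. In replicate 1 the isolated peaks lie below the remaining ones in all 4 quartiles, ending at 61.0% against 87.5%, and in replicate 2 both groups approach 100%.

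A wider peak can meet a 1 bp overlap more easily, and whether width caused the differences in these shares was not tested. Within quartiles of width the difference in replicate 1 was -6.12 ± 5.4 points, negative on 5 of 6 chromosomes (exact permutation p = 0.0625, adjusted 0.10). In replicate 2 it was 8.84 ± 4.6 points, positive on 6 of 6 (exact permutation p = 0.03125, adjusted 0.0556). Among the widest 25% of peaks, replicate 1 overlapped 51.0% (36.3 to 65.6) of 49 isolated peaks and 81.6% (80.3 to 82.8) of the remaining ones. That quartile was not matched in score, with medians of 16.8 for isolated and 25.2 for remaining peaks. In the next quartile down the shares were 43.3% (31.2 to 56.0) and 53.3% (51.6 to 54.9). The quartile below that had 29.3% (20.3 to 39.8) and 32.4% (30.8 to 33.9). In the narrowest the shares were 11.2% (6.10 to 18.4) and 20.1% (18.8 to 21.5).

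Isolated peaks had the smaller median width on 6 of 6 chromosomes, though the difference did not pass 0.05 after adjustment. Their median width was 260 bp, with an interquartile range of 189 to 483 bp, against 341 bp and 218 to 663 bp for the remaining peaks. The medians were 244 against 342.5 bp on I, 255 against 351.5 on II, and 282 against 366.5 on III. On IV they were 217 against 344 bp, on V 289 against 321, and on X 265 against 303. The mean difference of -79.4 ± 37 bp (SD, n = 6 chromosomes) was negative on 6 of 6, with an exact permutation p of 0.03125 and 0.0938 after adjustment over the 3 planned tests. As the only one of the 3 at the smallest possible p, it could not have had a lower adjusted value. In the higher-scoring 50% it was -208 bp (exact permutation p = 0.0625), and with an isolation distance of 50 kb, which left 50 isolated peaks, it was 37.5 ± 285 bp. At the broad end, 28 isolated peaks (8.64%, 5.82 to 12.2) were at least 1000 bp wide, against 14.4% of the remaining peaks, and 6 (1.85%, 0.683 to 3.99) reached 2000 bp, against 4.74%.

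The scores of isolated peaks were not shown to differ from those of the others. The median score was 7.52 for isolated and 7.89 for remaining peaks. Averaged over chromosomes, the median stood at percentile 49.3 of the list for isolated peaks and at 49.0 for remaining peaks, a difference of 0.35 ± 6.9 points with an exact permutation p of 0.844, also after adjustment. The sign was positive on I, V and X and negative on II, III and IV. In the centres alone, isolated peaks ranked higher, at percentile 48.6 against 39.5 over all centres, with a mean difference of 9.60 ± 5.2 points (exact permutation p = 0.03125, unadjusted, n = 6). Of the isolated peaks, 18.2% (14.2 to 22.9) fell in the top score quartile against 24.9% of the remaining peaks, and the middle quartiles held 29.6% and 30.6% of them. Across isolated peaks, wider peaks scored higher, with a Spearman's rho of 0.583 over 324 peaks from the same libraries, and 0.697 over the remaining peaks. The size of the gap to the nearest peak had almost no relation to score (rho of -0.097) or width (0.015) among isolated peaks.

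Distances to replicate peaks were largely fixed by the rule, because it removed every whole-series peak within 20 kb and only 857 (8.61%) replicate 1 peaks and 618 (4.58%) replicate 2 peaks lie outside that list. The counts below describe those peaks and carry no test. Apart from peaks overlapping the isolated peak itself, 300 of 324 (92.6%, 89.2 to 95.2) had no replicate 1 peak within 20 kb. In replicate 2 it was 276 (85.2%, 80.8 to 88.9). For the remaining peaks these shares were 9.00% and 1.19%. The mean was 88.9% ± 5.2 (SD, n = 2 replicates). Neither list had a further peak within 20 kb of 255 isolated peaks. Of these, 58 (22.7%) were overlapped in both replicates and 33 (12.9%) in neither. These shares were 20.7% and 13.0% over all isolated peaks, and 37.2% and 14.3% over the whole list.

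The flanks of the isolated peaks held few replicate peaks, and those they held were often close by. Replicate 1 had 30 such peaks, around 24 isolated peaks, and replicate 2 had 59, around 48, each counted once for every isolated peak it flanks. Within 2 kb of the edge lay 12 of the 30 and 19 of the 59. Judged by its own list, replicate 1 had 357 isolated peaks, or 3.59% of that list. Of these, 75 (21.0%) overlapped an isolated peak of the whole-series list and 234 a remaining peak. They met 75 (23.1%) of the 324, where 94 were overlapped by any replicate 1 peak. Replicate 2 had 344, or 2.55% of its list. Of these, 203 (59.0%) overlapped an isolated peak of the whole-series list and 104 a remaining peak. They met 203 (62.7%) of the 324, where 255 were overlapped by any replicate 2 peak. Peaks isolated in both replicate lists overlapped 46 of the 324, where 67 were overlapped in both replicates by any peak.

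**Figure D5:**
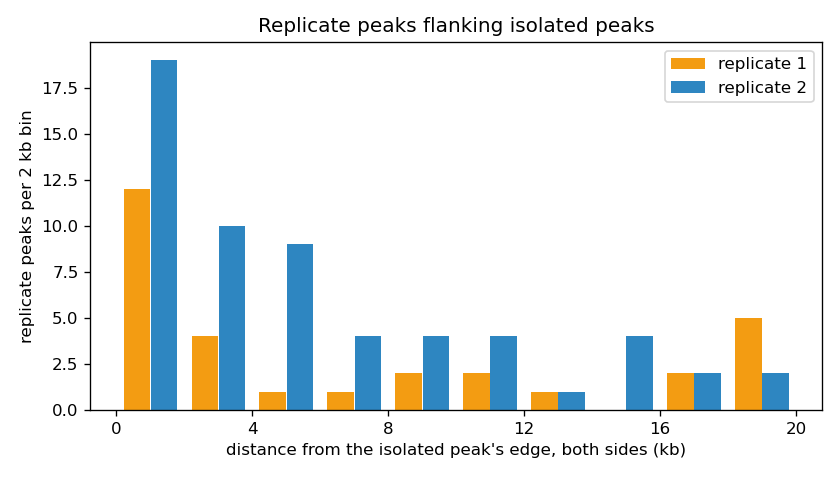
Number of replicate 1 (orange) and replicate 2 (blue) peaks in 2 kb bins of distance from the edges of the 324 isolated peaks, both sides together, leaving out peaks that overlap the isolated peak. The first bin is the tallest in both lists, with 12 and 19 peaks.

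Isolated peaks, like the remaining ones, were mostly met by a single replicate peak. Replicate 1 met 81 of its 94 with 1 peak and 13 with more, and replicate 2 met 241 of its 255 with 1 peak and 14 with more. By 1 peak were met 86.2% of the overlapped isolated peaks in replicate 1 and 94.5% in replicate 2, against 78.3% and 87.3% of the overlapped remaining peaks. The median share of the isolated peak's length that replicate peaks covered was 68.5% in replicate 1 and 95.7% in replicate 2. For remaining peaks it was 69.6% and 90.0%.

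A few isolated peaks were among the strongest of the whole list. The highest lay in the centre of II, at 10174382 to 10175000, with a score of 195.7, the sixth of all 14662 peaks. It was 619 bp wide, with 85.99 kb free of peaks on its left and 22.0 kb on its right. Its replicate 1 peak scored above 99.9% of that list and its replicate 2 peak above 99.97%, and both covered most of it, 89.0% and 97.7%. This peak thus ranked near the top of both libraries.

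The second lay on the right arm of X, at 14312518 to 14313065, with a score of 169.2 and rank 26. It was 548 bp wide, and its replicate peaks ranked above 99.0% of replicate 1 and 99.8% of replicate 2. Next came a peak of 2805 bp in the centre of V, at 9601684 to 9604488, with a score of 130.0, above 91.2% of replicate 1 and 97.9% of replicate 2. In the centre of II the peak at 9201910 to 9203605 scored 109.5, above 82.4% of replicate 1 and 99.1% of replicate 2. On the right arm of II the peak at 14877632 to 14879708 scored 98.7, and its replicate 1 peak covered 31.2% of its length while its replicate 2 peak covered 99.9%. In the centre of III the peak at 7498447 to 7498948 scored 81.2, above 93.1% and 96.7% of the replicate lists.

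The last 2 of the 8 highest with support in both replicates ranked differently in the 2 libraries. The peak on the left arm of V at 2948970 to 2949957 scored 58.2 and stood above 94.7% of replicate 2, but its replicate 1 peak stood above only 1.00% of that list. The peak on the same arm at 5777011 to 5778504 scored 54.7, above 93.7% of replicate 2 and 37.5% of replicate 1. With a reciprocal overlap of 50% required, 5 of these 8 kept support in both replicates, and 6 did when the midpoint had to lie in a replicate peak.

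The widest isolated peak spanned 8048 bp in the centre of X, at 10361069 to 10369116, yet its score was 6.94, below the list median. Replicate 2 met it with 3 peaks covering 98.4% of it, and replicate 1 with none. The second widest, of 3075 bp, lay on the right arm of V at 17308532 to 17311606 with a score of 17.7. The fourth, of 2254 bp at 17265073 to 17267326 and with a score of 8.38, was its neighbour across a gap of 41.2 kb. Both were found in replicate 2 and not in replicate 1. The third and the fifth widest were the strong peaks of the centre of V and the right arm of II, found in both.

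The 5 most remote peaks were between 164 and 287 bp wide. The peak farthest from any other lay on the left arm of X at 806609 to 806772, with 152 kb free of peaks on its left and 136 kb on its right. It was 164 bp wide, scored 12.56, and was found in replicate 1 alone. The next was in the centre of X at 8410744 to 8410962, 219 bp wide with a score of 4.82, also in replicate 1 alone. The third in order, in the centre of X at 6132645 to 6132891, scored 20.3. The fourth, in the centre of V at 7549055 to 7549225, scored 3.54, and the fifth, on the left arm of V at 482990 to 483276, scored 12.6. These 3 were found in replicate 2 alone, with nearest gaps of 107, 104 and 104 kb. None of these 5 was found in both libraries, where 20.7% of all isolated peaks were, so 5 peaks are too few to read a difference from.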

How the data were processed

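ChIP-seq peaks of LIN-61 were taken from 3 lists, 1 for each ChIP library and 1 for the whole series. Reads were aligned with BWA to ce10, per the submitters' processing notes, and peaks were called with MACS on WormBase WS220, per the file headers. The sources used here do not give versions, calling threshold, control or filters, nor the origin of the whole-series list. Each list gives a score per peak, deposited by the authors with no stated meaning.

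Libraries were grouped by their titles. Chromosomes were taken to end at the last peak of the 3 lists, and a peak belonged to the section holding its midpoint. A chromosome end counted as free of peaks. The score percentile is the rank of a peak in the whole-series list. Medians or percentages of isolated and remaining peaks were compared within each chromosome, and the mean difference over 6 chromosomes was tested with a two-sided exact permutation test over their signs (64 patterns), with Benjamini-Hochberg adjustment over 3 planned tests, and over 16 tests by replicate, of which 2, the differences over whole chromosomes, were planned and the others added after seeing the data. A check of the test used simulated peak widths with the same group sizes on every chromosome. It did not cover overlap shares or the unequal numbers of isolated peaks found here. Python 3.11.15, pandas 2.3.3 and SciPy 1.17.1 were used.

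The isolated set, tests and alternatives were chosen with earlier results of these data known. Named peaks are the 8 highest-scoring isolated peaks overlapped in both replicates, the 5 widest, the 5 most remote and the 3 nearest the limit on either side. Alternatives were isolation distances of 10 and 50 kb, merging of peaks less than 500 bp apart, leaving out peaks at chromosome ends, the higher-scoring 50%, centres or arms alone, stricter overlap, other windows, arms as the outer 25%, and each replicate left out. Placing peaks on genes was planned and not run, since no annotation of WS220 was used.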

Additional observations from a re-analysis of the deposited data

How the results depend on the processing

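At an isolation distance of 10 kb there were 735 isolated peaks, 41.9% of them in centres and 22.4% on X. At 50 kb there were 50, with 66.0% on X, and the width and score differences turned to 37.5 bp and -2.95 percentile points on the 5 chromosomes that held any, with an SD of 285 bp for width. With arms as the outer 25%, 69.8% of isolated peaks lay in centres. After merging of peaks under 500 bp apart, the overlap difference was -8.05 points (exact permutation p = 0.03125) and the score difference -4.22. In the higher-scoring 50% the overlap, width and score differences were -11.6 points, -208 bp (exact permutation p = 0.0625) and -3.45 points (exact permutation p = 0.03125). In centres alone the mean overlap difference was 3.02 points (exact permutation p = 0.03125) and the score difference 9.60. The overlap difference was 1.16 under a reciprocal overlap of 50%, 1.36 within width quartiles and -5.29 within score quartiles, and ran from -13.2 to 2.60 with a replicate left out. By replicate, the difference in replicate 1 was -1.51 in centres and -6.12 within width quartiles, with exact permutation p of 0.375 and 0.0625. Under reciprocal overlap it was -7.11, and -10.3 when the midpoint had to lie in a replicate peak (exact permutation p = 0.03125 each). In replicate 2 it was 7.55 in centres, 9.42 under reciprocal overlap and 8.84 within width quartiles, each with an exact permutation p of 0.03125. The share with no further replicate peak in the window ran from 85.2% to 92.6% with a replicate left out. The cause of these changes was not tested. Altogether, 34 values kept their direction and call, or stayed within the interval of the main value. Another 8 reversed in direction and 7 moved away from the main value. A further 8 kept their direction with a stronger call, and 3 with a weaker call. Of the 8 strongest named peaks, 5 kept both replicates under reciprocal overlap. p-values here are unadjusted. Unknown depth limits any reading of the difference between the replicate lists. No paired analysis was possible between libraries by replicate number, because isolated and remaining peaks share every library and ChIP was not set against input. Isolated and remaining peaks come from the same list, and the tests paired them within each chromosome.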

Other observations

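The longest stretch free of peaks beside an isolated peak was picked out after its value was seen. It ran for 344 kb on the left side of the peak on the left arm of X at 4791609 to 4792012. That peak was 404 bp wide, scored 13.6 and was overlapped in both replicates, with no further replicate peak within 20 kb in either list. Its gap on the right side was 76.2 kb.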
